A study of Homo sapiens with 6 samples.

Results

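The genes described here encode the subunits of oxidative phosphorylation: the 4 complexes of the mitochondrial respiratory chain, cytochrome c and ATP synthase. They were chosen by gene symbol, as the rows of the deposited expression table whose names mark them as subunits of these complexes. Of 15706 rows, 104 matched, 91 by the symbol printed in the table and 13 by the reference symbol of the same gene ID, because the table names the mitochondrially encoded genes without their usual prefix. Of the 104 rows, 83 were nuclear genes for subunits or cytochrome c, and 13 were the protein-coding genes of the mitochondrial genome. The other 8 were 3 pseudogenes, 2 retrocopies and 3 antisense or divergent RNAs, which were counted apart. A mean of at least 10 normalized counts was required for a test, and 81 of the 83 nuclear genes, all 13 mitochondrial genes and 7 of the 8 other rows passed it.

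RNA was sequenced from MDA-MB-231, an established human line of triple-negative breast cancer, grown in DMEM medium with 10% FBS and given no treatment. The KO group was 3 libraries labelled MLL3-knock out and sgMLL3 #1 to #3, in which MLL3, a methyltransferase of histone H3 whose gene is KMT2C, was targeted with a CRISPR guide. The control group was 3 libraries labelled Wilde type (as spelled there) and sgNT #1 to #3, read here as a guide without a target. All libraries are called biological replicates, but the labels do not say whether these were separate cultures, or whether the cells were clones or pools, so p-values measure the spread between these libraries. The labels also do not say whether #1 to #3 are different guides, in which case guide and replicate cannot be told apart. In bulk RNA, fewer cells of a kind and less RNA per cell cannot be told apart.

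In oxidative phosphorylation, complexes I and II pass electrons from NADH and succinate to ubiquinone, complex III passes them to cytochrome c, and complex IV passes them to oxygen. Complexes I, III and IV pump protons across the inner membrane, and ATP synthase, or complex V, uses the returning protons to make ATP. A few core subunits of each complex except complex II are encoded in the mitochondrial genome, while the rest are made from nuclear genes and imported, so each of these complexes draws on both genomes.

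Nuclear genes of this group are known targets of the transcription factors NRF1, GABP (an ETS factor, also named NRF-2) and YY1, and the promoters were therefore searched for their core motifs. RefSeq promoters on GRCh38.p14, 250 bases before to 50 bases after the start, were found for 65 of the 83 nuclear genes, and both strands were searched. The NRF1 motif GCATGCG was present in 14 promoters (21.5%), against 4.13% of all 27305 promoters. The ETS motif CCGGAAG was present in 19 (29.2%), against 10.7% of all, and the YY1 motif GATGGCG in 9 (13.8%), against 4.35% of all. The SP1 motif GGGCGGG was present in 17 (26.2%), against 32.9% of all. Matches are given by gene only for CYCS, COX4I1, NDUFB2 and ATP5MC1, and not for the other genes called. Cytochrome c (CYCS) held 1 NRF1 match, beginning 169 bases before the start. The complex IV subunit gene COX4I1 held 1 ETS match on the reverse strand, beginning 2 bases after the start. These 100-base windows are shown because CYCS was the 1 nuclear gene called higher, and COX4I1 was one of 3 called lower under both ways of handling base composition. They lie at chr7:25125361-25125460 on the minus strand and chr16:85799625-85799724 on the plus strand, and capitals mark the match. The promoters of NDUFB2 and ATP5MC1, the other two genes called lower both ways, held none of the 4 motifs.
CYCS: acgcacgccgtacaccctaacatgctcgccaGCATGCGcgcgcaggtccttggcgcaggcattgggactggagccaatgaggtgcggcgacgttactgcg
COX4I1: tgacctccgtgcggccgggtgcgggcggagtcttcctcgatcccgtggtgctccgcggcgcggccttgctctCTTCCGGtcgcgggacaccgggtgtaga

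The mitochondrial genes lie end to end on a small circular genome, and some neighbours share bases, which limits how reads can be assigned. ATP8 and ATP6 overlap by 46 bases at chrM:8527-8572 on the plus strand of GRCh38, which is 22.2% of ATP8 and 6.75% of ATP6. The shared stretch is shown because a read inside it belongs to both genes, and capitals mark the ATP6 start codon at its left end and the ATP8 stop codon at its right end. ND4L and ND4 overlap by 7 bases in the same way, and ATP6 and COX3 meet at a shared base.
ATP8 and ATP6: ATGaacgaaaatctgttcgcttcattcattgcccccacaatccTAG

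Recovered reads in the listed genes numbered 41240265 to 49514464 per library. KMT2C itself was at 1519, 1660 and 1339 normalized counts in KO libraries, against 1367, 1379 and 1255 in control libraries (log2 fold change 0.17, SE 0.10, limma adjusted p = 0.205), so its transcript gave no check of the label. Markers of the line were abundant: VIM, CD44, CAV1, EGFR and AXL ranged from 7577 to 49157 in KO libraries and from 7633 to 58823 in control libraries, while the epithelial markers CDH1 and EPCAM were at 2 to 6 and 861 to 999 in KO libraries, and at 4 to 8 and 765 to 796 in control libraries. Of the luminal markers, KRT8 was at 45859 to 52446 in KO and 50589 to 55702 in control libraries, and GATA3 at 426 to 505 and 572 to 674. Of the leukocyte, endothelial and fibroblast markers, PTPRC was at 197 to 259 counts in KO and 258 to 302 in control libraries, CD3E at 13 to 40 and 24 to 87, PECAM1 at 43 to 90 and 50 to 95, and PDGFRB at 457 to 518 and 684 to 701. PDGFRB and GATA3 were called lower in KO libraries as deposited (-0.48 and -0.44, limma adjusted p = 0.0046 and 0.012) and were not called after trend removal (-0.31 and -0.30, limma adjusted p = 0.091 and 0.068), while PTPRC was called lower only after it (-0.76, limma adjusted p = 0.013). The part of other cells in the results was not tested. Control replicate 1 stood apart from the other 5 libraries on the second principal component (score -34.9, against 2.03 to 15.1). Across all tested genes the fold change followed the GC content of the transcript, with a Spearman rho of -0.67 over 14598 genes. A trend along GC content and transcript length was therefore subtracted from each library, which is called trend removal below. Counts of called genes are also given after it, as are the values of named subunit genes whose call or direction it turned. For genes of the other lists these values are given only in part.

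Most nuclear subunit genes were slightly lower in KO libraries, while most mitochondrially encoded ones were slightly higher. A gene was called where its limma adjusted p, over 14618 tested genes, was below 0.05. Of 81 tested nuclear genes 12 were called lower and 1 was called higher, whereas 14.4% of all tested genes were called lower and 18.9% higher. The share called lower, 14.8%, was thus near the share among all genes, and the share called higher, 1.23%, was below it. The median log2 fold change of the nuclear genes was -0.12, with 65 of 81 below 0, against a median of -0.017 over all tested genes. Of the 13 mitochondrial genes 3 were called higher and 0 lower, with a median of 0.18. After trend removal 0 nuclear genes were called higher and 23 lower, against 4.08% and 5.95% of all genes, and the nuclear median was -0.081. Of the mitochondrial genes 0 were then called higher and 1 lower, with a median of 0.071.

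**Figure D1:**
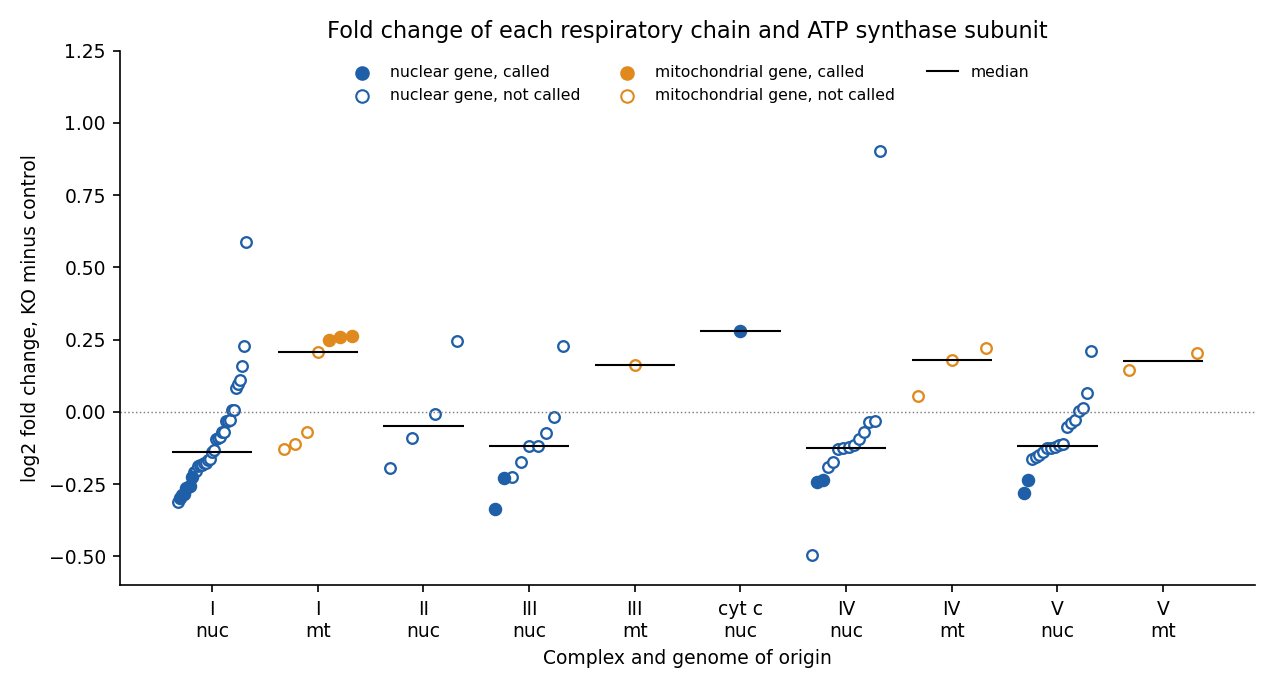
Log2 fold change (KO minus control, vertical axis) of each tested subunit gene, by complex and genome of origin (horizontal axis). Filled points were called by limma, open points were not, and black lines are medians: the median lies below 0 for the nuclear genes of complexes I to V and above 0 for the mitochondrial genes of complexes I, III, IV and V.

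In complex I, the NADH dehydrogenase, 6 of 35 tested nuclear genes were called lower and 0 higher, with a median log2 fold change of -0.14. For this and each complex below, the shares over all tested genes are 14.4% lower and 18.9% higher. NDUFV1, which binds FMN and takes the electrons from NADH, was at 8816, 9186 and 9495 normalized counts in KO libraries, against 11438, 11018 and 11357 in control libraries. All 3 KO libraries were below all 3 control libraries, and NDUFV1 fell by 0.30 (SE 0.075, limma adjusted p = 0.0065). NDUFS3, a core subunit of the arm that leads to ubiquinone, was at 3473, 3206 and 3154 in KO libraries, against 3861, 3888 and 4233 in control libraries, again with no overlap (-0.28, SE 0.084, limma adjusted p = 0.016). NDUFS8, which carries iron-sulfur clusters of the same arm, was at 5876, 5811 and 6278 in KO libraries, against 7142, 6692 and 7648 in control libraries (-0.26, SE 0.081, limma adjusted p = 0.022). NDUFS7, a core subunit that borders the ubiquinone site, averaged 663 ± 24.6 in KO and 798 ± 102 in control libraries (SD, n = 3 each), with overlapping groups, and its log2 fold change of -0.26 was not called (limma adjusted p = 0.097).

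The other core genes of the NADH-oxidizing end were not called. NDUFS1, the large iron-sulfur subunit, averaged 4274 ± 235 in KO and 3657 ± 325 in control libraries (SD, n = 3 each), with a log2 fold change of 0.23 as deposited and -0.12 after trend removal (limma adjusted p = 0.055 and 0.28). NDUFV2, its smaller iron-sulfur neighbour, was barely counted, at 31.7, 62.9 and 47.7 in KO libraries, against 30.2, 30.1 and 29.9 in control libraries. Since 28.4% of the exon bases of NDUFV2 are shared with another gene in GENCODE 29, its count is uncertain, and its log2 fold change of 0.59 was not called (limma adjusted p = 0.17). NDUFV2 had the highest log2 fold change of the tested complex I genes and NDUFA13, an accessory subunit also known as GRIM-19, the lowest (-0.31, SE 0.32, limma adjusted p = 0.48). NDUFA13 too was thinly counted, at 41.2, 121 and 114 in KO libraries, against 82.9, 104 and 127 in control libraries, and its groups overlapped. It shares 21.0% of its exon bases with other genes, so its count is uncertain too.

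Among the accessory subunits of complex I, which surround the core, 3 of 28 tested genes were called lower. NDUFB2, of the membrane arm, was at 2084, 1980 and 1838 in KO libraries, against 2554, 2189 and 2464 in control libraries, with no overlap (-0.29, SE 0.093, limma adjusted p = 0.025). It was the 1 complex I gene called lower both as deposited and after trend removal (-0.38 after it, limma adjusted p = 0.0066). NDUFB2 shares 35.9% of its exon bases, counted on either strand, with other genes, its antisense RNA among them, and the strand setting of the counting is not given in the sources used here. NDUFA2 and NDUFS6, of the arm that projects into the matrix, fell by 0.26 and 0.23 (limma adjusted p = 0.036 and 0.041), and were not called after trend removal (-0.10 and -0.037, limma adjusted p = 0.40 and 0.74). NDUFA7 was too low for a test, at 12.3 ± 3.86 in KO and 7.67 ± 4.61 in control libraries (SD, n = 3 each). It shares 33.5% of its exon bases, counted on either strand, with other genes, so its count is uncertain.

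Complex II, succinate dehydrogenase, links the citric acid cycle to the chain and is wholly nuclear. None of its 4 genes was called by limma. SDHA, the flavoprotein that oxidizes succinate, averaged 568 ± 37.6 in KO and 652 ± 75.8 in control libraries (SD, n = 3 each), and had the lowest log2 fold change of the complex (-0.19, limma adjusted p = 0.23). SDHA has near-identical copies in the genome, so its count is uncertain. SDHB, the iron-sulfur subunit, had a log2 fold change of -0.0087 (SE 0.086). SDHD, a membrane anchor, was at 3095, 2861 and 2588 in KO libraries, against 2529, 2561 and 2121 in control libraries. The groups of SDHD did not overlap, yet its log2 fold change of 0.25 was not called (SE 0.098, limma adjusted p = 0.061), and it was -0.041 after trend removal. SDHC, the other anchor, was at 5706, 5317 and 5039 in KO libraries, against 5693, 5508 and 5874 in control libraries, a log2 fold change of -0.090 that became -0.41 after trend removal and was then called (limma adjusted p = 0.0041).

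In complex III, which hands electrons from ubiquinol to cytochrome c, 2 of 9 nuclear genes were called lower and 0 higher. CYC1 encodes cytochrome c1, the heme subunit on which cytochrome c docks. It was at 17231, 16866 and 18450 in KO libraries, against 22380, 20736 and 23197 in control libraries, and the groups lay far apart relative to their spread. CYC1 fell by 0.34 (SE 0.078, limma adjusted p = 0.0040), the smallest adjusted p of any nuclear subunit gene. UQCRC1, a core protein of the matrix side, was at 10851, 11093 and 11164 in KO libraries, against 13765, 12375 and 12720 in control libraries (-0.23, SE 0.076, limma adjusted p = 0.028). Its partner UQCRC2 had a log2 fold change of 0.23 in the opposite direction, with overlapping groups of 4102 ± 318 in KO and 3506 ± 382 in control libraries (SD, n = 3 each), and was not called (limma adjusted p = 0.066). The Rieske iron-sulfur protein UQCRFS1 had a log2 fold change of -0.12 and was not called (limma adjusted p = 0.28).

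Cytochrome c, the mobile carrier between complexes III and IV and a trigger of apoptosis when released, moved the other way. CYCS was at 9837, 9164 and 9218 in KO libraries, against 8123, 7488 and 7653 in control libraries, with no overlap. CYCS rose by 0.28 (SE 0.077, limma adjusted p = 0.011). After trend removal its log2 fold change was -0.030 and it was not called (limma adjusted p = 0.79). Without KO replicate 1 or without control replicate 2 it lost its call as well (limma adjusted p = 0.065 and 0.057). CYCS has processed copies in the genome, whose reads may be hard to tell from its own.

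In complex IV, cytochrome c oxidase, 2 of 14 tested nuclear genes were called lower and 0 higher. COX4I1, the largest nuclear subunit and a site at which ATP is known to act on the enzyme, was at 15162, 14038 and 14559 in KO libraries, against 16928, 16748 and 17894 in control libraries. All KO values were below all control values, and COX4I1 fell by 0.24 (SE 0.075, limma adjusted p = 0.023). The fall was as large after trend removal (-0.25, SE 0.055, limma adjusted p = 0.016), and COX4I1 was not called after quantile normalization (-0.16, limma adjusted p = 0.087). COX8A, a small subunit, was at 3413, 3327 and 3243 in KO libraries, against 4094, 3719 and 4017 in control libraries (-0.24, SE 0.082, limma adjusted p = 0.030), and stood at 0.014 after trend removal. COX8A shares 34.5% of its exon bases with another gene.

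Isoforms and relatives of complex IV subunits were not called as deposited, and some were called lower after trend removal. Of the COX7A family, COX7A2 averaged 6369 ± 669 in KO and 6925 ± 301 in control libraries, COX7A2L, which helps complexes III and IV associate, 5215 ± 431 and 5470 ± 408, and the muscle isoform COX7A1 14.7 ± 10.3 and 19.1 ± 6.08 (SD, n = 3 each). COX7A1 and the isoform COX7B2 had the lowest and the highest log2 fold changes of the complex, -0.50 and 0.90, both at mean counts under 20 and both with overlapping groups (limma adjusted p = 0.47 and 0.21). NDUFA4, once assigned to complex I and now to complex IV, averaged 4349 ± 461 in KO and 4731 ± 37.6 in control libraries, while its hypoxia-inducible relative NDUFA4L2 was too low for a test, at 6.06 ± 5.55 and 7.60 ± 3.24. COX6A1 and COX6B1 had log2 fold changes of -0.093 and -0.17 as deposited (limma adjusted p = 0.49 and 0.093). After trend removal COX7A2 (-0.34), COX7A2L (-0.27), COX6A1 (-0.37) and NDUFA4 (-0.45) were called lower (limma adjusted p = 0.015, 0.047, 0.025 and 0.0016), and COX6B1 stood at 0.053 without a call. The isoforms COX4I2, COX6A2 and COX6B2 were not among the rows of the deposited expression table.

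In complex V, ATP synthase, 2 of 18 nuclear genes were called lower and 0 higher. ATP5MC1, ATP5MC2 and ATP5MC3 encode the same mature c subunit, the rotor ring that protons turn, and differ in their import sequences. ATP5MC1 was at 3049, 3092 and 3177 in KO libraries, against 4082, 3560 and 3691 in control libraries, without overlap, and fell by 0.28 (SE 0.084, limma adjusted p = 0.018). ATP5MC2 averaged 4019 ± 115 in KO and 4465 ± 279 in control libraries, and ATP5MC3 11206 ± 864 and 12511 ± 204 (SD, n = 3 each). In each of the 3 genes every KO library was below every control library, but ATP5MC2 (-0.15) and ATP5MC3 (-0.16) were not called (limma adjusted p = 0.16 and 0.12). ATP5MF, subunit f of the membrane part, averaged 2040 ± 90.2 in KO and 2400 ± 130 in control libraries and was called close to the threshold (-0.23, limma adjusted p = 0.049). ATP5F1A and ATP5F1B, the alpha and beta subunits that carry the catalytic sites, had log2 fold changes of -0.039 and -0.11 and were not called (limma adjusted p = 0.72 and 0.25). ATP5PB, of the stalk that holds the head in place, had the highest log2 fold change of the complex as deposited (0.21, limma adjusted p = 0.080) and stood at -0.015 after trend removal. ATP5IF1, the peptide that blocks the enzyme when it would run in reverse, had a log2 fold change of -0.13 and was not called (limma adjusted p = 0.26).

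**Figure D2:**
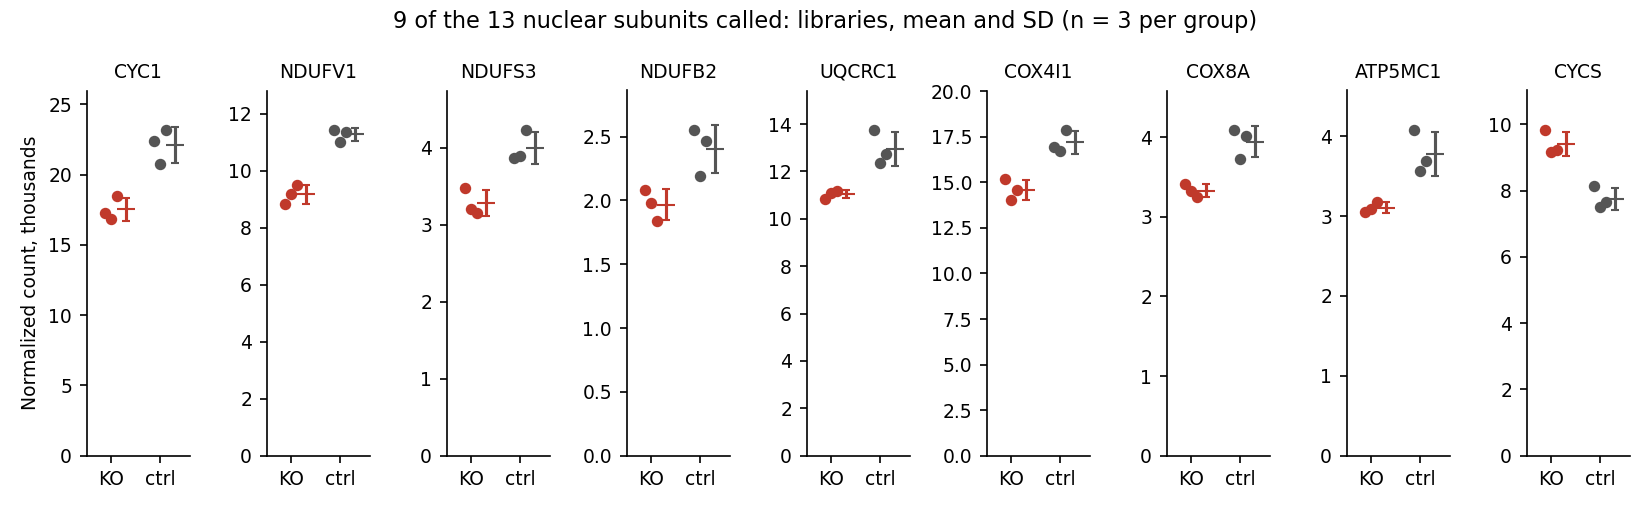
Normalized counts, scaled by 1000 (vertical axis, from 0), of 9 of the 13 nuclear genes called, for the 3 KO and 3 control libraries (points), with mean and SD beside them. The KO points lie below all control points in CYC1, NDUFV1, NDUFS3, NDUFB2, UQCRC1, COX4I1, COX8A and ATP5MC1, and above them in CYCS.

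Over the 81 tested nuclear genes, the KO libraries lay wholly below the control libraries in 30 and wholly above them in 6. Among all tested genes the shares were 22.4% below and 23.9% above. The 12 genes called lower all lay wholly below, with log2 fold changes from -0.34 to -0.23. When each library was left out in turn, CYC1 and NDUFV1 kept their calls in all 6 fits, and each of the other 10 lost its call in at least 1 of them. The nuclear genes called lower then numbered 6 without KO replicate 1, 2 without KO replicate 2, 8 without KO replicate 3, 13 without control replicate 1, 9 without control replicate 2 and 4 without control replicate 3. In the same order, 3.8%, 4.89%, 15.0%, 19.6%, 9.27% and 7.29% of all tested genes were called lower. Of 79 nuclear genes with an adjusted p-value in the authors' deposited table, 14 were lower and 2 higher, against 17.4% lower and 21.1% higher of all genes there. The authors' deposited table called UQCRQ and NDUFB10 lower and NDUFS1 higher beyond the genes named above. Of the nuclear genes, 43 share exon bases with another gene and 8 of these were called lower, compared with 4 of the 38 that share none. Of the 15 nuclear genes with a mean under 1000 none was called by limma.

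The nuclear genes called lower differed in base composition between the 2 treatments of the data. As deposited, 9 of the 12 genes called lower had a GC content above 50%, and 9 of the 29 tested nuclear genes above 50% were called lower (31.0%), near the 29.3% of all 6620 genes above 50%. Among the 52 nuclear genes with at most 50% GC, 3 were called lower and 1 higher, while 34.0% of all 7978 such genes were called higher and 1.98% lower. After trend removal the order turned round. The Spearman rho of GC content with the log2 fold change over the 81 nuclear genes was -0.61 as deposited and 0.66 after trend removal, a description over genes that share 6 libraries. Over all 14598 genes it was -0.67 as deposited and -0.028 after trend removal. Among the nuclear genes trend removal thus left a relation to GC content of the opposite sign. All 23 nuclear genes called lower after trend removal had at most 50% GC, and 3 of them, NDUFB2, COX4I1 and ATP5MC1, were also called as deposited.

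The genes with the largest falls after trend removal were small subunits. UQCRB, a small subunit of complex III near its ubiquinone site, was at 6680, 6025 and 5858 in KO libraries, against 6978, 6865 and 7056 in control libraries. Its groups did not overlap, its log2 fold change was -0.17 as deposited and not called (limma adjusted p = 0.10), and after trend removal it was -0.60 (SE 0.060, limma adjusted p = 0.00072). ATP5MC3 stood at -0.51 after trend removal (limma adjusted p = 0.00086), COX7C at -0.47 (limma adjusted p = 0.0014), NDUFA4 at -0.45 (limma adjusted p = 0.0016) and ATP5F1E, the epsilon subunit of ATP synthase, at -0.45 (limma adjusted p = 0.0018). In complex I, NDUFB1, NDUFB5 and NDUFB4 of the membrane arm were at -0.49, -0.37 and -0.35 (limma adjusted p = 0.011, 0.0041 and 0.0065), and NDUFB5 was at 0.0077 as deposited. UQCRFS1 and ATP5MG, subunit g of ATP synthase, stood at -0.24 and -0.36 (limma adjusted p = 0.025 and 0.0086). By complex, trend removal called 7 of 35 nuclear genes of complex I lower, 1 of 4 of complex II, 2 of 9 of complex III, 7 of 14 of complex IV and 6 of 18 of complex V. Over all genes the share was 5.95%, and over all genes with at most 50% GC it was 7.76%. Left without any 1 of the 6 libraries, 8 of the 23 kept their calls, namely NDUFB2, NDUFB5, SDHC, UQCRB, COX7C, NDUFA4, ATP5F1E and ATP5MC3, and the count of nuclear genes called lower ranged from 8 without KO replicate 1 to 30 without control replicate 1. Of all genes 1.73% were called lower without KO replicate 1 and 14.5% without control replicate 1. CYC1, NDUFV1, NDUFS3 and NDUFS8 lost their calls with trend removal (-0.076, -0.073, -0.081 and -0.053, limma adjusted p = 0.43, 0.44, 0.46 and 0.57), and UQCRC1 and ATP5MF stood at 0.011 and 0.021.

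**Figure D3:**
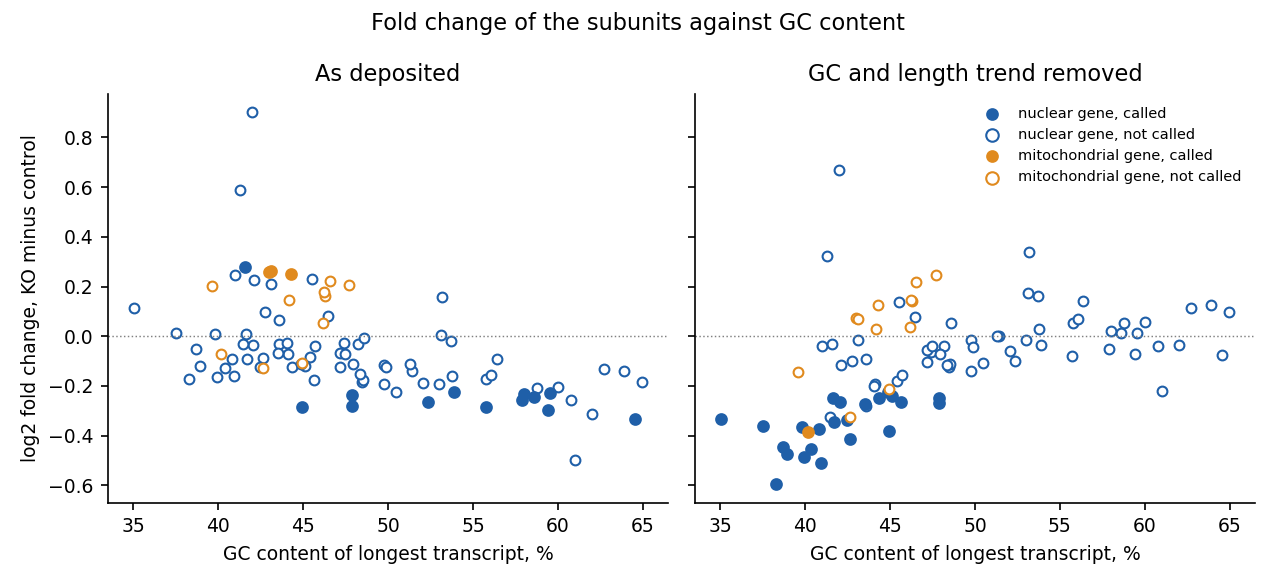
Log2 fold change (KO minus control, vertical axis) against GC content of the longest transcript in percent (horizontal axis), for the tested subunit genes as deposited (left) and after trend removal (right). Filled points were called: as deposited 9 of the 12 nuclear genes called lower lie above 50% GC, and after trend removal all 23 lie at or below it.

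The 13 mitochondrial genes together took 3.24%, 3.41% and 3.39% of the normalized counts in KO libraries, against 2.73%, 2.97% and 3.01% in control libraries. The groups did not overlap. The 83 nuclear genes took 0.918%, 0.866% and 0.840% in KO libraries, against 0.946%, 0.898% and 0.892% in control libraries, and these groups overlapped. The ratio of the mitochondrial to the nuclear sum was 3.53, 3.93 and 4.04 in KO libraries, against 2.89, 3.30 and 3.37 in control libraries. Its mean was 3.83 ± 0.268 in KO and 3.19 ± 0.260 in control libraries (SD, n = 3 each), 20.2% higher in KO, with no overlap. No p-value is given for these sums.

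Of the 7 mitochondrial genes for complex I, 3 rose. ND2, a proton-pumping membrane subunit (chrM:4470-5511), was at 79696, 85247 and 84599 in KO libraries, against 63636, 71583 and 73569 in control libraries (0.26, SE 0.082, limma adjusted p = 0.023). ND4, another such subunit (chrM:10760-12137), was at 146461, 155304 and 154116 in KO libraries, against 113537, 134168 and 136770 in control libraries (0.25, SE 0.089, limma adjusted p = 0.038). ND4L, which shares a transcript with ND4 (chrM:10470-10766), was at 18487, 21176 and 19821 in KO libraries, against 15706, 17341 and 16527 in control libraries (0.26, SE 0.079, limma adjusted p = 0.018). In all 3 genes the KO libraries were above the control libraries, and control replicate 1 was the lowest. After trend removal ND2, ND4 and ND4L stood at 0.075, 0.13 and 0.071 and were not called (limma adjusted p = 0.68, 0.46 and 0.68). ND1, which forms part of the ubiquinone channel, averaged 83507 ± 4653 in KO and 72524 ± 8042 in control libraries (SD, n = 3 each), without overlap and without a call (0.21, limma adjusted p = 0.083).

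ND3, ND5 and ND6 were the 3 mitochondrial genes below 0, ND3 standing at 0.055 after quantile normalization, and all had overlapping groups. ND5, the outermost proton pump of the arm, averaged 58005 ± 2868 in KO and 62600 ± 3748 in control libraries (SD, n = 3 each; -0.11, limma adjusted p = 0.31). ND6, the one protein gene on the light strand, averaged 17670 ± 937 and 19350 ± 2068 (-0.13, limma adjusted p = 0.27). Without the strand setting of the counting, reads from ND6 and from RNA of the opposite strand cannot be told apart. ND3 averaged 27728 ± 823 in KO and 29171 ± 2429 in control libraries (-0.070, limma adjusted p = 0.53), and was the 1 mitochondrial gene called lower after trend removal (-0.38, SE 0.10, limma adjusted p = 0.038). This call of ND3 was lost in 5 of the 6 fits that leave out a library.

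The mitochondrial genes of the other complexes were above 0 as deposited and not called. CYTB, the cytochrome b of complex III, was at 71450, 75674 and 75229 in KO libraries, against 64042, 66690 and 67821 in control libraries, without overlap (0.16, SE 0.077, limma adjusted p = 0.11). COX1, which holds the oxygen-binding centre of complex IV, was at 428379, 442738 and 455948 in KO libraries, against 365159, 388867 and 419598 in control libraries, also without overlap (0.18, SE 0.091, limma adjusted p = 0.14). COX3 averaged 192017 ± 3560 in KO and 165035 ± 10966 in control libraries (SD, n = 3 each) and came close to the threshold (0.22, limma adjusted p = 0.051); the authors' deposited table gave it an adjusted p-value of 0.023 and 4 mitochondrial genes as higher in all. COX2, which takes electrons from cytochrome c, had overlapping groups (0.054, limma adjusted p = 0.67). ATP6, the proton channel of ATP synthase, averaged 155941 ± 8371 in KO and 140915 ± 8158 in control libraries with overlapping groups (0.15, limma adjusted p = 0.19). ATP8 averaged 10128 ± 549 in KO and 8800 ± 580 in control libraries, without overlap (0.20, limma adjusted p = 0.059), and stood at -0.14 after trend removal.

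In 8 of the 13 mitochondrial genes the KO libraries lay wholly above the control libraries, and in 0 wholly below, against 23.9% and 22.4% of all tested genes and 1905 above of 4930 genes in the same range of GC content. Control replicate 1, the library apart on the second principal component, held the lowest value in 11 of the 13 genes, and KO replicate 1 in the other two. Without control replicate 1 limma called 2 mitochondrial genes higher and 1 lower, without KO replicate 2 it called 0 higher, and without control replicate 3 it called 5 higher. Of all tested genes 22.6% were higher and 19.6% lower without control replicate 1. The shares higher were 12.2% without KO replicate 2 and 14.3% without control replicate 3. ND4 kept its call in 1 of the 6 fits that leave out a library, ND2 in 4 and ND4L in 5. The part of control replicate 1 in these calls was not tested beyond these values. Per kilobase of exon, COX1 had the highest level of the 13, at 286871 in KO and 253702 in control libraries, and ND5 the lowest, at 32012 and 34548, with ND6 next to it at 33657 and 36857 (normalized counts per kilobase, group means). The highest nuclear level per kilobase was that of ATP5F1B, at 15336 in KO and 16601 in control libraries, below every mitochondrial gene.

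**Figure D4:**
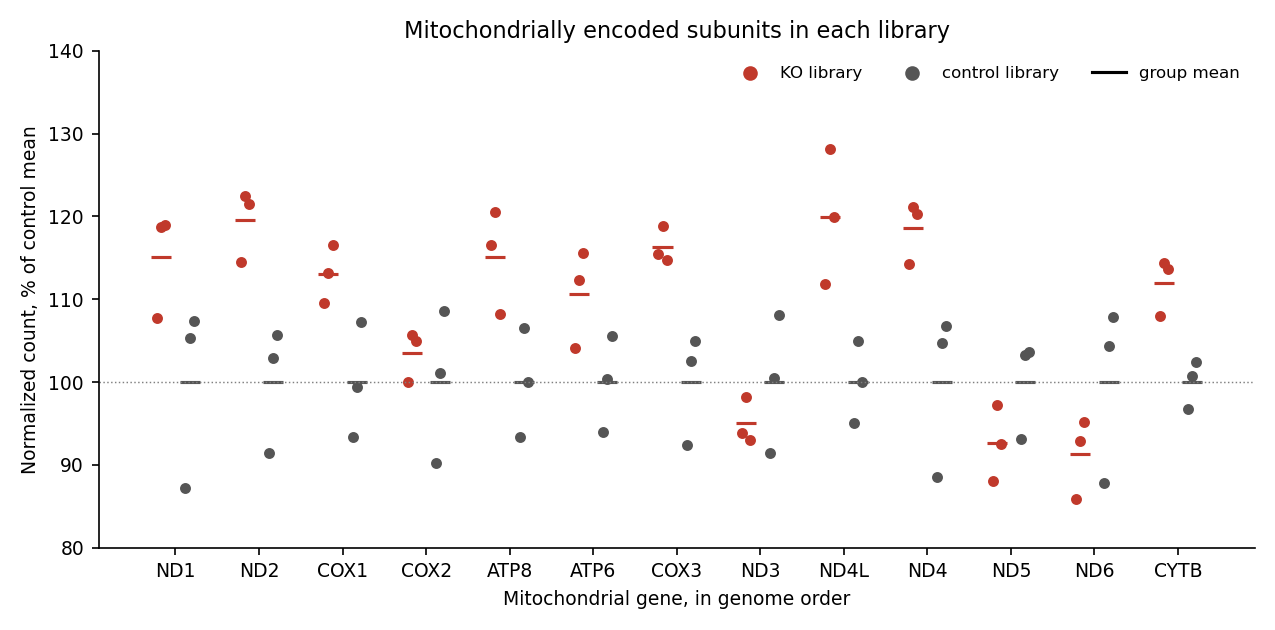
Normalized count of each mitochondrial gene as a percent of its control mean (vertical axis, from 80 to 140), with genes in genome order (horizontal axis), for 3 KO and 3 control libraries (points) and group means (lines). KO means lie above 100% in 10 genes and below it in ND3 (above it after quantile normalization), ND5 and ND6, and control replicate 1 is the lowest library in 11 genes.

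Because the mitochondrial genes span 39.6% to 47.7% GC, they were set beside genes of like composition. The 4930 tested genes within that range had a median log2 fold change of 0.20, near the 0.18 of the mitochondrial genes, and 29.6% of them were called higher and 1.72% lower, against 23.1% and 0 of the mitochondrial genes. The 36 nuclear subunit genes within it had a median of -0.054, with 1 called higher and 1 lower. After trend removal 16 of these 36 nuclear genes were called lower (44.4%), against 8.01% of the 4930. No test was made of the difference between the 2 genomes. Copies of the mitochondrial genes on chromosome 1 can take their reads, and 7 such rows were in the table. Their levels ran from 12.7 to 11463 normalized counts in KO and from 14.7 to 10630 in control libraries (group means), and 1 of them, MTCO3P12, was called higher (0.28, SE 0.096, limma adjusted p = 0.033). Its groups did not overlap, and it was called higher after trend removal too (0.34, limma adjusted p = 0.038). Of the 8 pseudogene, retrocopy and antisense rows of the nuclear subunits, 7 were tested and limma called none. UQCRHL, a retrocopy of the complex III subunit gene UQCRH, was the most abundant of them, at 284 counts in KO and 335 in control libraries on average.

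Assembly factors build the complexes but are not part of them, and 5 of 60 were called higher (8.33%) and 7 lower (11.7%), against 18.9% and 14.4% of all tested genes, with a median log2 fold change of -0.052. For complex I, NDUFAF7 and NDUFAF4 rose by 0.45 and 0.40 (limma adjusted p = 0.020 and 0.018), while DMAC1 and FOXRED1 fell by 0.47 and 0.27 (limma adjusted p = 0.016 and 0.022). DMAC1, which serves the far end of the membrane arm, was at 469, 462 and 446 in KO libraries, against 793, 534 and 604 in control libraries, and was the 1 assembly factor called lower both as deposited and after trend removal (-0.80 after it, limma adjusted p = 0.0031). For complex II, SDHAF1, which helps load iron-sulfur clusters into SDHB, fell by 0.29 (limma adjusted p = 0.043). For complex III, TTC19 rose by 0.32 and UQCC2, needed for cytochrome b, fell by 0.27 (limma adjusted p = 0.010 and 0.030). For complex IV, COA7 and COX11, which inserts copper, rose by 0.28 and 0.27 (limma adjusted p = 0.035 and 0.038), and TACO1, a translational activator of COX1, and COA3 fell by 0.33 and 0.30 (limma adjusted p = 0.0084 and 0.016). Of 5 ATP synthase assembly factors limma called none. After trend removal 0 of 60 assembly factors were higher and 6 lower (10.0%), against 4.08% and 5.95% of all genes.

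Of 33 genes that maintain and express the mitochondrial genome, 11 were called higher (33.3%) and 2 lower (6.06%), against 18.9% and 14.4% of all tested genes, with a median log2 fold change of 0.20. The median GC content of the list was 42.6%, and among all genes with at most 50% GC 34.0% were called higher, near the share in the list. LRPPRC, which stabilizes mitochondrial messenger RNAs, was at 7514, 7257 and 6479 in KO libraries, against 4899, 4494 and 4051 in control libraries, and the groups were far apart. LRPPRC rose by 0.66 (SE 0.089, limma adjusted p = 7.2e-05) and was called higher after trend removal too (0.37, limma adjusted p = 0.0029). PNPT1, an RNA-processing phosphorylase of mitochondria, was at 2066, 1839 and 1605 in KO libraries, against 1120, 1063 and 1103 in control libraries, and rose by 0.74 (SE 0.10, limma adjusted p = 9.7e-05), or by 0.39 after trend removal (limma adjusted p = 0.011). SLIRP, the partner of LRPPRC, had a log2 fold change of -0.19 that was not called and stood at -0.52 after trend removal (limma adjusted p = 0.12 and 0.0021). TFAM, which packages mitochondrial DNA, rose by 0.49 and stood at 0.067 after trend removal (limma adjusted p = 0.00083 and 0.49). POLRMT, the mitochondrial RNA polymerase, and FASTK fell by 0.26 and 0.30 (limma adjusted p = 0.033 and 0.016). They stood at -0.042 and -0.073 after trend removal, without a call (limma adjusted p = 0.69 and 0.44). After trend removal 2 of the 33 were higher (6.06%) and 3 lower (9.09%), against 4.08% and 5.95% of all genes.

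For the 3 smaller lists, the shares over all tested genes are again 18.9% higher and 14.4% lower. Of 11 regulators of these genes 3 were called higher (27.3%) and 0 lower, among them CREB1 (0.51, limma adjusted p = 0.00065) and GABPA, the DNA-binding part of GABP (0.48, limma adjusted p = 0.0035), and after trend removal 0 were called in either direction. In the pyruvate dehydrogenase and citric acid cycle list 6 of 19 genes were higher (31.6%) and 5 lower (26.3%). SUCLA2 and DLD rose by 0.59 and 0.44 (limma adjusted p = 0.0012 and 0.0044), IDH3G and MDH2 fell by 0.35 and 0.30 (limma adjusted p = 0.0086 and 0.0095), and after trend removal 0 of the 19 were called. Of 15 other routes of electron entry, carriers and pores 2 were higher and 3 lower. After trend removal 0 were higher and 2 lower (13.3%), against 4.08% and 5.95% of all genes. The list included NDUFAB1, a complex I subunit gene that the symbol rule did not match, which was not called (-0.20, limma adjusted p = 0.092). GPD2, the glycerol phosphate dehydrogenase, and ETFDH, which passes electrons from fatty acid oxidation, rose by 0.52 and 0.35 (limma adjusted p = 0.00094 and 0.032). They stood at 0.14 and 0.18 after trend removal, without a call (limma adjusted p = 0.19 and 0.32). SLC25A5, an ADP/ATP carrier of the inner membrane, was at 15775, 15542 and 15170 in KO libraries, against 19052, 17602 and 18744 in control libraries, and fell by 0.25, and by 0.17 after trend removal (limma adjusted p = 0.016 and 0.048). DHODH, which feeds electrons from pyrimidine synthesis, fell by 0.30 (limma adjusted p = 0.041). It stood at -0.19 after trend removal, without a call (limma adjusted p = 0.195).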

How the data were processed

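Tools listed in the submitters' processing notes are STAR 2.4.0, FastQC, DESeq2 1.30.1 and featureCounts 1.5.0, with GRCh38.p13 (hg38) as the build. Which annotation was counted, on which strand and with which filters is not given in the sources used here. One table was deposited, with a normalized count per gene and library, a signal that equals reads over a size factor. Beside these the authors gave, per the file headers, each gene's log2 fold change and standard error, a test statistic (score), and the p-value with its adjusted form. Divided by the value of 1 read in its library, 100% of values came within 0.01 of a whole read.

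Values were tested as log2(value + 1) with limma 3.58.1 under R 4.3.3 (trended prior, two-sided, 3 KO against 3 control libraries), for 14618 genes whose mean reached 10, and with Benjamini-Hochberg adjustment at 0.05. Fold changes are on that log2 scale, which understates those of low genes. SE is the standard error of limma. Trend removal fitted natural splines of GC percent and log2 length of the longest GENCODE 29 transcript, 5 terms each, to each library over 14598 genes. On the recovered reads, edgeR 4.0.16 called 2682 genes higher and 2230 lower, and DESeq2 1.42.0 called 2855 and 2294. Other alternatives were pseudocounts of 0.5 and 10, no filter, quantile normalization, a replicate block and leaving out each library. The limma fit was tested on simulated data without a trend along GC content or length, and trend removal was not simulated.

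The members and lists were chosen with earlier results of these data known. Named were all mitochondrial genes, up to 3 genes per direction and complex with the smallest adjusted p before and after trend removal, the extremes of each complex, isoform families, CYC1, CYCS and ATP5IF1, and up to 2 genes per direction of each other list. The other core or catalytic genes, NDUFA2, NDUFB1, NDUFS6, NDUFA7, SLIRP and TFAM fall outside this rule and were chosen after their values were seen. Sequences are from RefSeq promoters (GRCh38.p14) and GENCODE 29 transcripts. Pairing was looked at through the correlation of same-numbered libraries.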

Additional observations from a re-analysis of the deposited data

How the results depend on the processing

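Among 74 named genes, pseudocounts of 0.5 or 10, no filter, quantile normalization, edgeR and DESeq2 changed 0, 0, 1, 13, 1 and 2 calls. None of these turned a called gene, and quantile normalization turned the uncalled ATP5MG (-0.067), ND3 (0.055) and NDUFB5 (-0.0069). Quantile normalization called 3 nuclear genes higher and 8 mitochondrial genes higher, and DESeq2 2 and 5. Trend removal moved the calls over all genes to 595 higher and 868 lower, those among nuclear genes to 0 and 23 and those among mitochondrial genes to 0 and 1, and the mitochondrial median to 0.071. Among genes called before or after it, trend removal also turned the direction of ATP5MF (0.021), ATP5MG (-0.36), COX8A (0.014), CYCS (-0.030), NDUFAF4 (-0.0052), NDUFB5 (-0.37), TTC19 (-0.046) and UQCRC1 (0.011). Of the genes called neither way it turned ATP5PB (-0.015), ATP8 (-0.14), COX6B1 (0.053), KMT2C (-0.039) and SDHD (-0.041). The replicate block with trend removal gave the same values; the cause was not tested.

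Same-numbered KO and control libraries correlated at 0.066, 0.0063 and 0.13. KO replicates 1 and 3 each correlated best with the control of the same number, and KO replicate 2 with control replicate 1 (0.022). These weak correlations do not show whether the numbers pair the libraries. With the replicate block, 5 nuclear genes were higher and 22 lower, against 22.2% and 20.7% of all genes, and 9 mitochondrial genes were higher. The replicate block with trend removal called 540 genes higher and 773 lower, 0 and 19 of the nuclear genes and 2 and 3 of the mitochondrial ones, with a mitochondrial median of 0.071.

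Leaving out each library in turn, with and without trend removal, gave 127 to 3300 genes higher and 252 to 2868 lower, 0 to 5 nuclear genes higher and 2 to 30 lower, and 0 to 5 mitochondrial genes higher and 0 to 4 lower. Most nuclear calls were lost without KO replicate 2 (2 lower) and without control replicate 3 (4 lower). Of all tested genes 4.89% and 7.29% were called lower in these fits. The nuclear median ranged from -0.15 to -0.063 and the mitochondrial from -0.033, without control replicate 1 after trend removal, to 0.20. Among genes called in the full or the reduced fit, directions turned for ATP5MF (-0.28 to 0.059), ATP5MG (-0.40 to 0.088), ATP8 (-0.27 to 0.25), COX8A (-0.29 to 0.054), CYCS (-0.069 to 0.31), DLD (-0.0027 to 0.57), GABPA (-0.028 to 0.53), ND2 (-0.033 to 0.30), ND4L (-0.031 to 0.31), NDUFAF4 (-0.095 to 0.50), NDUFB5 (-0.39 to 0.10), SDHAF1 (-0.33 to 0.024), TTC19 (-0.090 to 0.39) and UQCRC1 (-0.26 to 0.079), in fits with trend removal; ATP5MG and NDUFB5 also turned, uncalled, in fits without it.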
